A study of Mus musculus with 2 samples.

Results

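The genes described here are 33 antioxidant genes, many of them known targets of the transcription factor NRF2. They were listed by name and taken by symbol from the 32285 genes of the deposited gene tables, and all 33 were found. The counts come from marrow cells of mice with osteoporotic fractures that carried a rod (an intramedullary nail) in the femur. Cells of the femoral marrow and cells attached to the implant were measured on a droplet platform (10x Chromium) that counts unique molecular identifiers (UMIs) at the 3′ end of transcripts. There were 2 libraries, 1 from mice with a plain magnesium (Mg) nail and 1 from mice with a Mg-TAGelMA nail. GelMA is gelatin methacryloyl, a hydrogel; what TA stands for is not stated. Both groups share the fracture and the osteoporosis. The description of the second group names Mg-TAGelMA, while the title of its sample names TA-GelMA without Mg, and no library without an implant was analysed here. The strain, sex and age of the mice, how osteoporosis was induced, how many mice were pooled and the time after implantation are not given in the sources used here. With 1 library per group there is no replicate and no test of the nails, and every interval is an exact 95% interval that covers counting error only.

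NRF2, encoded by Nfe2l2, is held in the cytoplasm and marked for degradation by KEAP1. Oxidants and electrophiles that modify KEAP1 let NRF2 reach the nucleus, where it binds antioxidant response elements together with small MAF proteins and raises genes for glutathione synthesis, thioredoxin reduction and NADPH supply. Glutathione and thioredoxin in turn feed the peroxidases and peroxiredoxins that remove hydrogen peroxide. In marrow, neutrophils make superoxide and hydrogen peroxide with their NADPH oxidase, and maturing red cells carry a large load of haem iron and oxygen.

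The Mg library gave 8122 kept cells (median depth 3804 UMIs), and 7226 cells were kept from the Mg-TAGelMA library (median depth 6744). The deposited matrices held 58261391 and 79890998 UMIs, and the libraries shared 21 barcodes. Cells were placed in classes from the UMIs of marker genes, none of which is a member, and 8 classes were large enough to describe. Among them, 1 class was small (early granulocyte-like, 55 and 136 cells in the Mg and Mg-TAGelMA libraries) and the other 7 held 108 to 1793 cells in each library. Stromal and endothelial-like cells numbered 8 and 0. Mature neutrophil-like cells were 4.49% and 24.8% of kept cells and erythroid-like cells 11.7% and 1.49%. Gm42418, whose model lies over ribosomal RNA sequence, took 6.90% of the Mg total and 0.110% of the other, and 19.2% against 0.120% in mature neutrophil-like cells. The median of immature neutrophil markers per 10000 UMIs in B progenitor-like, B-like, T-like and erythroid-like cells was 10.5 to 12.7 with the Mg nail and 34.9 to 37.1 with the Mg-TAGelMA nail. Those markers belong to another lineage, and their level in these classes is used below as a measure of free neutrophil RNA, an estimate chosen after the values were seen.

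The members took 57.7 of every 10000 UMIs with the Mg nail and 70.8 with the Mg-TAGelMA nail. Erythroid-like cells held 103 and 100.04, and mature neutrophil-like cells 70.3 and 108. B-like cells held 21.7 and 22.3, and T-like cells 21.7 and 25.5. Lymphoid cells thus carried the smallest share of member UMIs in both libraries among the 8 classes.

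The antioxidant response element has the core TGACNNNGC. It was searched on both strands in RefSeq promoter windows of 300 bases (GRCm38.p6, 250 bases before to 50 bases after each start). Windows were found for 29 of the 33 members, and not for Gclc, Gsr, Gsta4 and Prdx6. The core was present for 8 of the 29 (27.6%) against 13.99% of 27025 genes, or in 8 of 37 member windows (21.6%) against 12.4% of 32851 windows. The 8 were G6pdx, Gclm, Mgst1, Nfe2l2, Prdx1, Sod1, Srxn1 and Txnrd1. A match is a description of letters and not a measured binding site. The windows below belong to genes on which the results turn: Gclm, highest in erythroid-like cells, Prdx1, highest in monocyte-like cells, and Nfe2l2 itself, which differed between the libraries. Each runs 5′ to 3′ on the gene's strand with the core in capitals.
Gclm promoter (chr3:122245307-122245606, plus strand): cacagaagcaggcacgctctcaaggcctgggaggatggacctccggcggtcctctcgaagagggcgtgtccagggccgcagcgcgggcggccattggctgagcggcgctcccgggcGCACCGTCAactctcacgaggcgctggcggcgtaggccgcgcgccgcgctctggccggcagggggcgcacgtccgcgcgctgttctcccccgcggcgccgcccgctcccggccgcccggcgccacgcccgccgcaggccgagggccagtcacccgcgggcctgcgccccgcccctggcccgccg
Prdx1 promoter (chr4:116685349-116685648, plus strand): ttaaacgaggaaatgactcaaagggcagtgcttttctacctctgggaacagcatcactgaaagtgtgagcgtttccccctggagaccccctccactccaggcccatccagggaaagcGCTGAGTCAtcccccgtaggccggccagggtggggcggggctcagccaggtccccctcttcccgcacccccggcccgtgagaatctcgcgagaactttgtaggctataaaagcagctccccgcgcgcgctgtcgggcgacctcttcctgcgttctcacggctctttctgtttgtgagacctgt
Nfe2l2 promoter (chr2:75704614-75704913, minus strand): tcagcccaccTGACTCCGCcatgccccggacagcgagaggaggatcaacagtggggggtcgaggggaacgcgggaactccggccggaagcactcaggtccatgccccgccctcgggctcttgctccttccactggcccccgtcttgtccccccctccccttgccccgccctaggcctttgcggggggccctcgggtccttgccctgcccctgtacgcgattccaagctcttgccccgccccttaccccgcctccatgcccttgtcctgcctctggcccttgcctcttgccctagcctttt
The core began 134 bases before the start of Gclm and 133 before that of Prdx1, on the opposite strand in both, and 240 before that of Nfe2l2 on the same strand. The Prdx1 match also holds the AP-1 site TGACTCA.

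Levels are UMIs of the gene scaled to a class total of 1000000 UMIs (CPM). A member was called higher or lower in a class when its level against all other gated cells lay wholly beyond 2-fold on the same side in both libraries, with 50 CPM on the higher side. These calls are rules of size and not tests. The mix of the other gated cells differed between the libraries, so the size of a fold over them is not comparable between libraries. Of the 264 pairs of member and class, 177 reached that level, 19 were called higher and 42 lower. Members tested numbered 23, 23, 22, 22, 23, 21, 21 and 22 over the classes. The order is early granulocyte-like, immature neutrophil-like, mature neutrophil-like, monocyte-like, B progenitor-like, B-like, T-like and erythroid-like. In erythroid-like cells 7 members were higher (Gclc, Gclm, Gpx1, Prdx2, Prdx3, Sod1 and Mgst3) and 6 lower, against 15.2% and 20.8% of all genes tested. Immature neutrophil-like cells had 6 higher (Gsr, Glrx, Prdx5, Prdx6, Mgst2 and G6pdx, background 6.23%) and 5 lower (19.0%). Mature neutrophil-like cells had 4 higher (Slc7a11, Gsr, Taldo1 and Osgin1, background 11.0%) and 4 lower (23.3%). Monocyte-like cells had 1 higher (Prdx1, 9.33%) and 1 lower (Mgst2, 5.06%), and early granulocyte-like cells 1 higher (Gstm1, 3.09%) and 0 lower (6.12%). No member was called higher in the lymphoid classes: B progenitor-like cells had 0 higher (9.18%) and 7 lower (9.06%), B-like cells 0 (9.52%) and 11 (8.71%), and T-like cells 0 (7.73%) and 8 (10.8%). The class with the highest level was the same in both libraries for 22 of the 33 members.

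**Figure D1:**
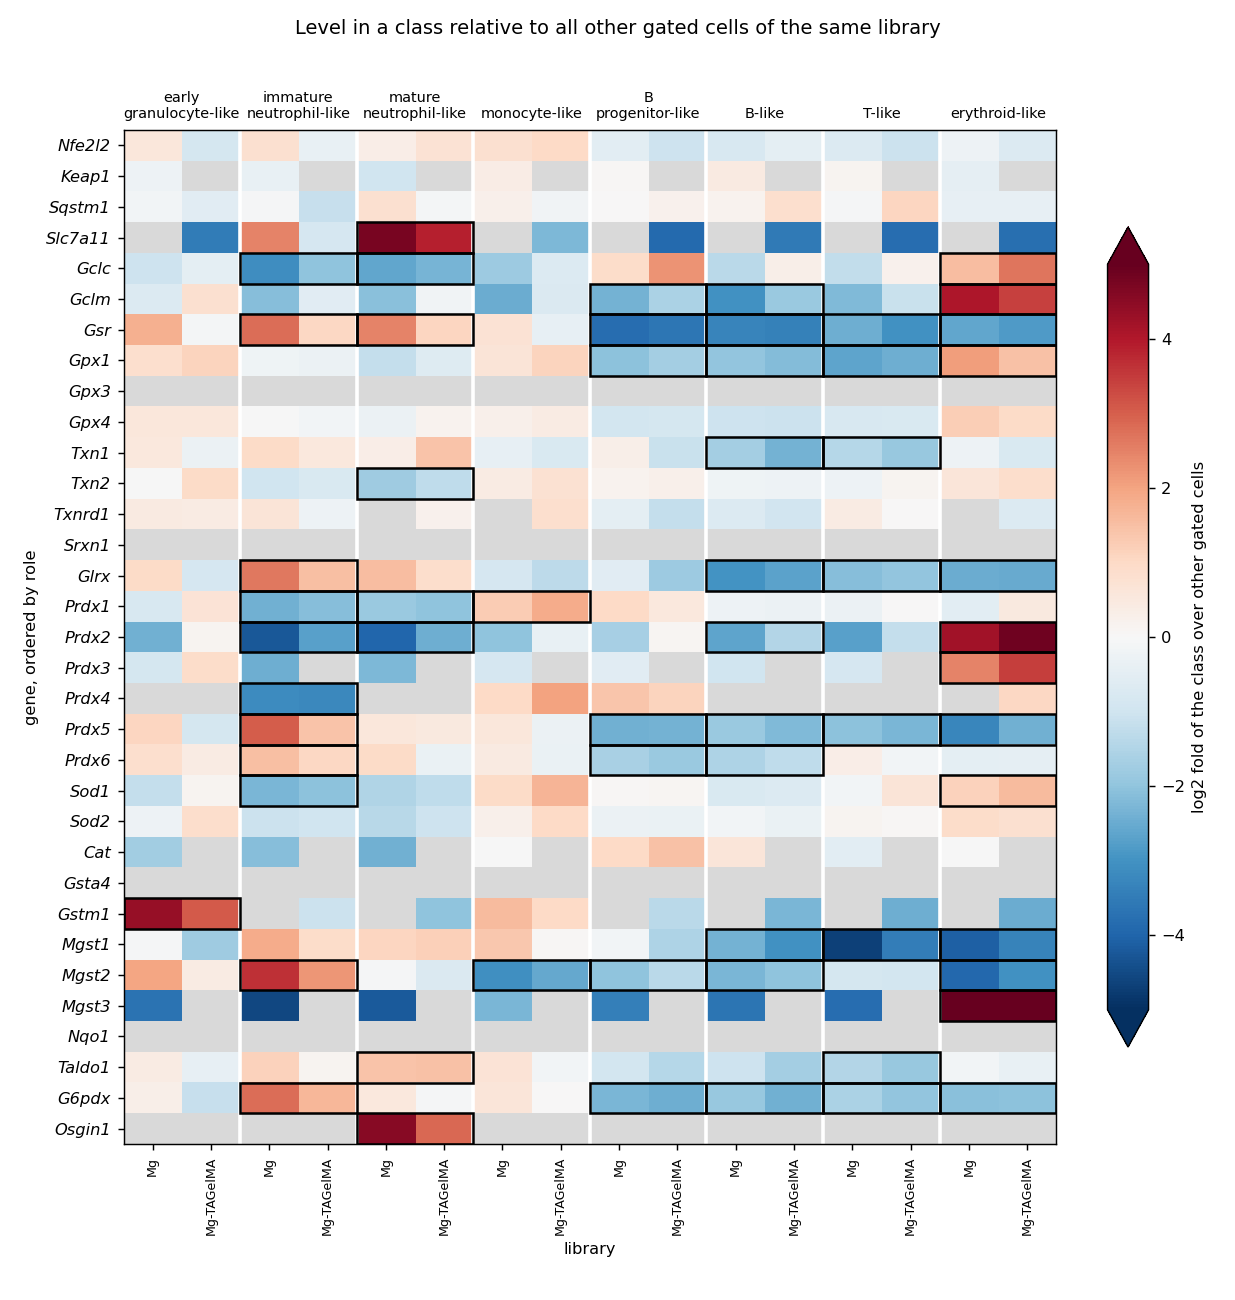
Rows are the 33 members ordered by role and columns are the 8 classes in each library. Colour is the log2 fold of the class over all other gated cells of the same library, red for higher and blue for lower, with colours ending at 5. Grey marks values under 50 CPM on both sides, and black frames mark the 61 pairs called in both libraries. Prdx2, Gclm and Mgst3 stand out in erythroid-like cells and Slc7a11 and Osgin1 in mature neutrophil-like cells.

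Between the libraries, the same size rule was applied to each class with 100 cells or more in both, so the cells share a gate but may differ otherwise. When all kept cells were clustered on their whole profiles, 29 of 37 Leiden clusters, with 90.1% of cells, held 95% or more of their cells from 1 library. Outside erythroid-like cells, the clusters named for the 7 classes were nearly all of this kind, with 1 immature neutrophil-like cluster (26) mixed. Immature neutrophil-like cells were mainly in clusters 1 and 20 of Mg cells and 3, 16 and 28 of Mg-TAGelMA cells. Mature neutrophil-like clusters (4, 5 and 34) held 1 Mg cell in all. The main clusters were 9 and 13 for monocyte-like cells, 0 and 8 against 6 for B-like cells, 12 and 19 for T-like cells, and 2, 14 and 17 against 7 and 22 for B progenitor-like cells. Library and cell state cannot be told apart in these classes. The mature neutrophil-like gate also held unlike cells: Il1r2 was 624 and 2419 CPM, Asprv1 52.6 and 314 CPM and Mmp8 4846 and 2235 CPM in the Mg and Mg-TAGelMA libraries, and granule genes took 9.98% and 22.1% of UMIs. The folds of Nfe2l2, Slc7a11 and Txn1 in that class stand beside these differences, whose part in them was not tested. In the B-like gate Ms4a1 was 1897 and 876 CPM, Ighd 1041 and 497 CPM and Cd22 361 and 130 CPM. Fcer2a, Cr2 and Fcmr were also lower with Mg-TAGelMA. Bank1, with 265 kb of intron, was 655 and 2799 CPM and Cd55 479 and 530 CPM. The part of these marker differences in the B-like folds was not tested. Of 231 pairs, 132 reached 50 CPM, 12 were called higher with Mg-TAGelMA and 2 lower. In the order immature neutrophil-like, mature neutrophil-like, monocyte-like, B progenitor-like, B-like, T-like and erythroid-like, the numbers of members higher were 1, 3, 2, 1, 2, 1 and 2, while 9.49%, 11.9%, 14.9%, 17.4%, 21.6%, 20.7% and 14.2% of all genes tested were higher. The members tested numbered 16, 18, 23, 20, 17, 18 and 20 in the same order. Both members called lower were Keap1, in B-like and T-like cells, and the background for lower was 4.66%, 9.19%, 1.54%, 1.17%, 4.37%, 1.85% and 1.17% in the same order. The median log2 fold of the members tested was 0.16, 0.30, 0.17, -0.17, -0.14, 0.14 and 0.25, beside -0.12, -0.01, 0.11, -0.02, 0.04, 0.16 and 0.27 for all genes tested. The member median was above that of all genes in immature and mature neutrophil-like and monocyte-like cells and below it in the other 4 classes. The 12 of 132 pairs called higher, pooled over classes, are a smaller share than the background in any of the 7 classes, so no excess is read from these counts and the account below is of single members.

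**Figure D2:**
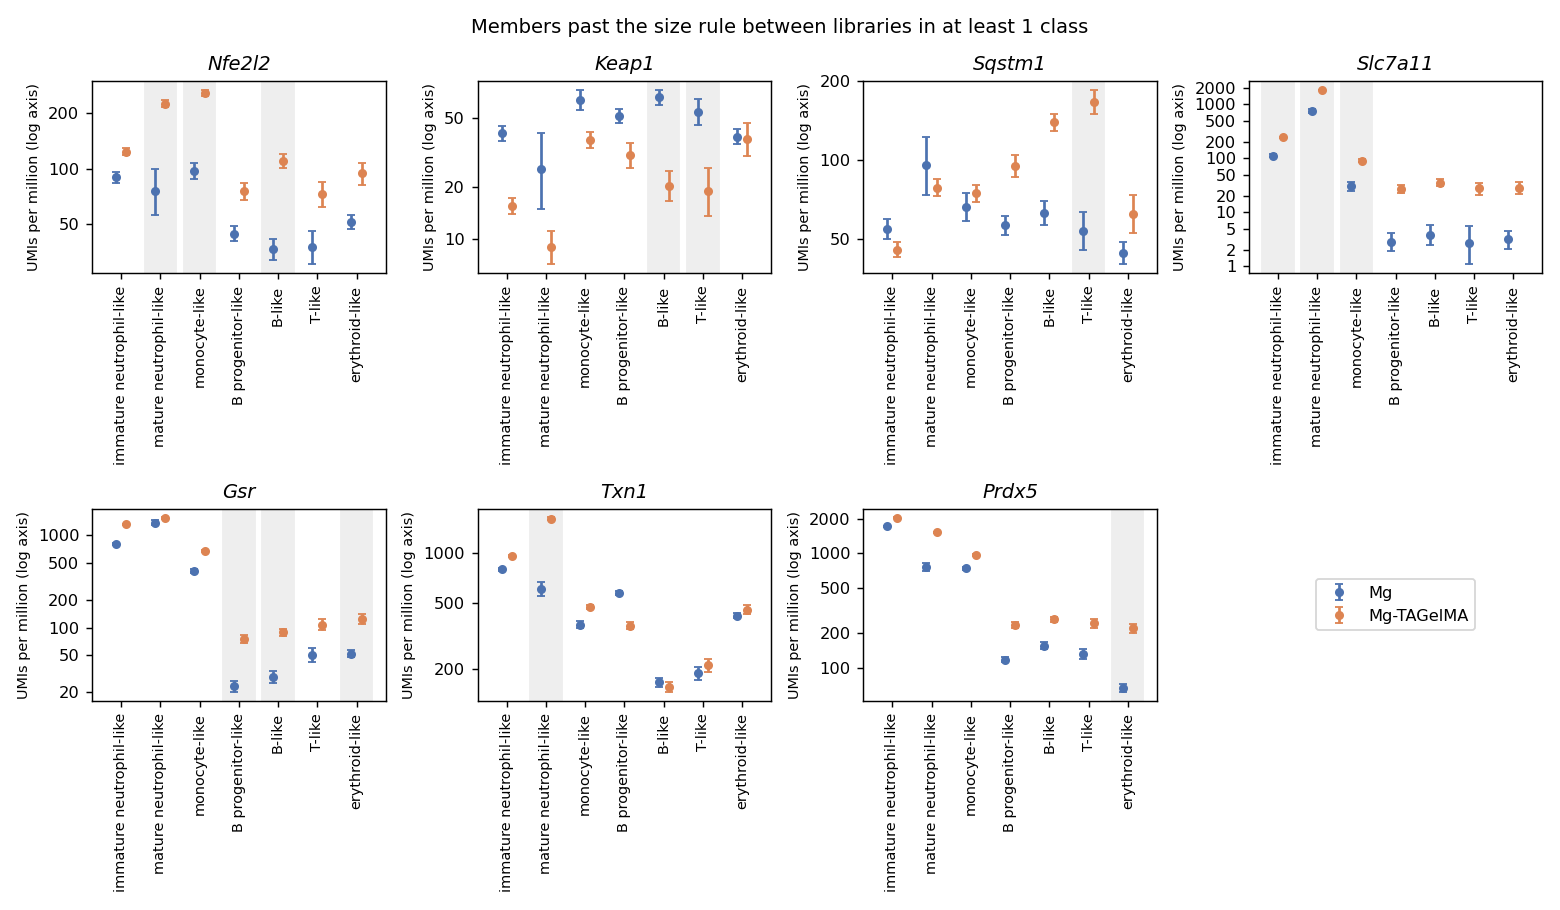
Points are the level of each gene in CPM (log axis) in the Mg library (blue) and the Mg-TAGelMA library (orange), with exact Poisson 95% intervals, in the 7 classes compared. Grey bands mark the classes where the gene was past the size rule. Nfe2l2 was above its Mg level in all 7 classes, and Keap1 was at or below it.

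Nfe2l2, which encodes NRF2 (chr2:75675513-75704641, minus strand), had its highest level in monocyte-like cells of both libraries. In the Mg library, however, the monocyte-like interval overlapped those of immature neutrophil-like, mature neutrophil-like and early granulocyte-like cells. Nfe2l2 measured 97.3 and 259 CPM in monocyte-like cells of the Mg and Mg-TAGelMA libraries, a 2.66-fold (2.39 to 2.98) higher level in the latter. Mature neutrophil-like cells had 75.2 and 225 CPM, 2.999-fold (2.27 to 4.05) higher. B-like cells had 36.3 and 109.9 CPM, 3.02-fold (2.58 to 3.56) higher. The remaining classes showed the same side without passing the rule, at 89.5 and 124 CPM in immature neutrophil-like cells, 44.2 and 75.02 CPM in B progenitor-like cells, 37.2 and 72.6 CPM in T-like cells and 51.1 and 94.03 CPM in erythroid-like cells. Subtracting free RNA of immature neutrophil-like cells left the monocyte-like fold (log2 fold 2.04 with Leiden clusters in place of 1.41) at 2.65 and the B-like fold at 2.99. In mature neutrophil-like cells the call was lost when globin, mitochondrial, Gm42418 and Lars2 UMIs were left out of the total (log2 fold 1.24 in place of 1.58).

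Keap1, the adaptor that sends NRF2 to degradation, was the 1 member called lower within a class. It measured 66.1 and 20.3 CPM in B-like cells, 3.25-fold (2.61 to 4.09) lower, and 54.4 and 18.95 CPM in T-like cells, 2.87-fold (2.01 to 4.17) lower. Immature neutrophil-like cells had 40.8 and 15.6 CPM, monocyte-like cells 63.8 and 37.4 CPM and B progenitor-like cells 51.5 and 30.4 CPM, all under the rule. Erythroid-like cells had nearly equal levels, 39.1 and 38.1 CPM. With only genes of at most 8 kb of intron in the total, Keap1 was lower in immature neutrophil-like cells, 2.58-fold (2.21 to 2.997), where 7.01% of such genes were lower, and no longer past the rule in B-like cells at 2.33-fold (1.87 to 2.94) and T-like cells at 2.19-fold (1.54 to 3.19). With Leiden clusters the T-like call was lost too (log2 fold -1.43 in place of -1.52). Sqstm1 encodes p62, an autophagy receptor that can bind KEAP1. It measured 54.01 and 167 CPM in T-like cells, 3.10-fold (2.54 to 3.80) higher in the Mg-TAGelMA library, and 63.02 and 139.5 CPM in B-like cells. In monocyte-like cells (66.4 and 74.8 CPM) and immature neutrophil-like cells (54.8 and 45.7 CPM) the levels were close. The highest Sqstm1 class in the Mg library was mature neutrophil-like cells at 96.2 CPM, where Sqstm1 was past no rule between libraries. In the other library it was T-like cells.

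Slc7a11 encodes the light chain of the cystine-glutamate exchanger, which brings in cystine for glutathione synthesis. It was high in neutrophils, with 756 and 1831 CPM in mature neutrophil-like cells, 26.6-fold (23.9 to 29.5) over the other gated cells with Mg and 14.8-fold (14.4 to 15.2) with Mg-TAGelMA. Immature neutrophil-like cells had 111 and 246 CPM and monocyte-like cells 30.6 and 90.5 CPM. All 3 classes were higher in the Mg-TAGelMA library, by 2.42-fold (2.22 to 2.65), 2.21-fold (2.07 to 2.37) and 2.96-fold (2.44 to 3.61). Among cells with at least 1000 UMIs, thinned to that number (272 of 365 and 1773 of 1793 mature neutrophil-like cells), 40.8% (34.9 to 46.9) of mature neutrophil-like cells had a Slc7a11 UMI with the Mg nail and 73.2% (71.1 to 75.3) with the Mg-TAGelMA nail (unthinned 57.8% and 94.8% at median depths of 1466 and 4926 UMIs). In B-like cells (1664 of 1696 and 996 of 1000) the thinned shares were 0.120% (0.0146 to 0.433) and 4.02% (2.88 to 5.43), at unthinned medians of 3256 and 4613 UMIs.

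Outside the myeloid classes the Slc7a11 level of the Mg-TAGelMA library was under that of free RNA when mature neutrophil-like cells were taken as its source, and above it when immature ones were. The level in B progenitor-like, B-like, T-like and erythroid-like cells was 27.4, 35.3, 27.7 and 28.7 CPM there. Free RNA of mature neutrophil-like cells, scaled by their marker UMIs in each class, came to 48.3, 55.01, 46.2 and 44.2 CPM. With immature neutrophil-like cells as the source it came to 9.54 CPM in B-like cells. In monocyte-like cells the fold between libraries of 2.96 became 1.15 with the mature source and 2.79 with the immature source. With the mature source, the Mg estimate was 9.32 CPM in monocyte-like cells against 2.53 in B progenitor-like and 3.28 in B-like cells. Why it was higher in monocyte-like cells was not tested, so neither 1.15 nor 2.79 is taken as the monocyte-like fold. With the total that leaves out globin, mitochondrial, Gm42418 and Lars2 UMIs, the log2 fold was 0.93 in mature and 0.99 in immature neutrophil-like cells, and neither was past the rule. With Leiden clusters in place of the gate, the log2 fold in immature neutrophil-like cells was 0.42 in place of 1.15 and not past the rule, and in monocyte-like cells it was 2.57 in place of 1.56. The annotated gene spans chr3:49892526-50443614 with 537 kb of intron, the most of any member, and overlaps 2 gene models on its strand (Gm37498 and Gm37692) that the gene tables do not list.

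Gclc and Gclm encode the catalytic and modifier subunits of glutamate-cysteine ligase, the first step of glutathione synthesis. Gclm was an erythroid gene in these libraries, with 645 and 478 CPM in erythroid-like cells, 16.5-fold (15.5 to 17.4) over the other gated cells with Mg and 10.6-fold (9.85 to 11.4) with Mg-TAGelMA. Its next highest class was early granulocyte-like cells with 102 and 100.02 CPM, and B-like cells had 22.6 and 17.5 CPM. Gclc shared the erythroid peak at 229 and 315 CPM, 2.92-fold (2.76 to 3.09) over the other gated cells with Mg and 6.38-fold (5.87 to 6.92) with Mg-TAGelMA. Unlike Gclm, Gclc was also present in B progenitor-like cells at 175 and 218 CPM, while mature neutrophil-like cells had 18.04 and 13.4 CPM. Neither subunit was past the rule between libraries within any class.

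Gsr, glutathione reductase, returns oxidised glutathione to its reduced form with NADPH. Its level was 1374 and 1545 CPM in mature and 809 and 1317 CPM in immature neutrophil-like cells, 856 and 797 CPM in early granulocyte-like and 410.1 and 677 CPM in monocyte-like cells. The lymphoid and erythroid classes were far lower, 14.04-fold and 12.1-fold below the other gated cells in B progenitor-like, 9.95-fold and 10.4-fold in B-like, 5.37-fold and 8.19-fold in T-like and 6.02-fold and 7.09-fold in erythroid-like cells of the Mg and Mg-TAGelMA libraries. Between the libraries Gsr was past the rule only in low classes: B progenitor-like cells (22.96 and 75.4 CPM, 3.29-fold (2.77 to 3.90) higher), B-like cells (29.4 and 88.7 CPM, 3.02-fold (2.53 to 3.62) higher) and erythroid-like cells (51.9 and 124 CPM, 2.40-fold (2.06 to 2.79) higher). Free RNA of immature neutrophil-like cells came to 8.25 and 46.3 CPM of Gsr in B progenitor-like cells, and the fold without it was 1.98. Without it the fold was 1.99 in B-like cells and 1.73 in erythroid-like cells. With mature neutrophil-like cells as the source it came to 4.60 and 40.7 CPM in B progenitor-like cells. The folds were then 1.89 in B progenitor-like and 1.81 in B-like cells. The sources were not removed together, so the remaining levels may still hold free RNA. In immature neutrophil-like cells Gsr was 1.63-fold (1.59 to 1.67) higher in the Mg-TAGelMA library. In mature neutrophil-like cells it was 1.12-fold (1.05 to 1.20) higher, and neither passed the rule. Gm42418 took 19.2% and 0.120% of UMIs in mature neutrophil-like cells, so the direction of a fold this small depends on the total used. Without globin, mitochondrial, Gm42418 and Lars2 UMIs in the total, the log2 fold of Gsr in erythroid-like cells was 0.98 in place of 1.26 and no longer past the rule. Globin was 19.3% and 8.73% of UMIs in that class and Gm42418 6.11% and 0.217%. The calls of Gsr and Prdx6 over the other gated cells in immature neutrophil-like cells were lost with the same total.

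Gpx1, the cytosolic glutathione peroxidase that reduces hydrogen peroxide, was highest in erythroid-like cells at 3005 and 2426 CPM, 4.25-fold (4.18 to 4.32) over the other gated cells with Mg and 2.76-fold (2.68 to 2.83) with Mg-TAGelMA. Early granulocyte-like cells had 2060.5 and 1855 CPM, monocyte-like cells 1762 and 1685 CPM, immature neutrophil-like cells 1034 and 818 CPM and mature neutrophil-like cells 517 and 635 CPM. The lymphoid classes were lower, down to 200.4 and 176 CPM in T-like cells, and the order of the 8 classes was the same in both libraries, with B progenitor-like and B-like cells overlapping in the Mg library. Gpx4, which reduces lipid hydroperoxides in membranes, had a narrower range, from 137 CPM in B-like to 483 in erythroid-like cells of the Mg library and from 138 to 529.7 in the same classes of the other. Gpx4 was past no rule, and neither was Gpx3, the secreted glutathione peroxidase, at 3.70 and 4.73 CPM in all cells.

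Txn1, cytosolic thioredoxin, reduces protein disulfides and peroxiredoxins. In mature neutrophil-like cells it measured 606 and 1624 CPM, 2.68-fold (2.43 to 2.97) higher in the Mg-TAGelMA library, and the call was lost with the total that leaves out globin, mitochondrial, Gm42418 and Lars2 UMIs (log2 fold 1.08 in place of 1.42). Immature neutrophil-like cells had 799 and 963 CPM, erythroid-like cells 419 and 456 CPM and B progenitor-like cells 575 and 364 CPM. The level was 3.23-fold and 5.19-fold below the other gated cells in B-like and 2.68-fold and 3.70-fold in T-like cells. Glrx, glutaredoxin, which removes glutathione from proteins, was a neutrophil gene at 289.99 and 316 CPM in immature neutrophil-like cells, 6.25-fold and 2.85-fold over the other gated cells. Mature neutrophil-like cells were close at 272 and 290.4 CPM, while B-like cells had 13.9 and 29.4 CPM and erythroid-like cells 20.8 and 31.8 CPM.

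The mitochondrial thioredoxin Txn2 was 3.45-fold and 2.39-fold lower in mature neutrophil-like than in the other gated cells (22.5 and 31.04 CPM) and measured 106 and 122 CPM in erythroid-like cells. That call was lost without globin, mitochondrial, Gm42418 and Lars2 UMIs in the total. Txnrd1, cytosolic thioredoxin reductase and a classic NRF2 target, was past no rule. Its level was 50.9 and 57.5 CPM in all cells, with 66.97 and 47.8 CPM in immature and 33.1 and 62.1 CPM in mature neutrophil-like, 45.7 and 86.6 CPM in monocyte-like, 63.4 and 54.6 CPM in T-like and 36.3 and 24.8 CPM in B progenitor-like cells. Txnrd1 shares its strand with Eid3, a listed gene that overlaps it. Srxn1, sulfiredoxin, which repairs overoxidised peroxiredoxins, was low at 1.81 and 2.97 CPM in all cells.

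The 6 peroxiredoxins, thiol peroxidases that reduce hydrogen peroxide, divided by lineage. Prdx2, abundant in red cells, measured 2927 and 2719 CPM in erythroid-like cells, 18.4-fold (17.9 to 18.9) over the other gated cells with Mg and 28.9-fold (27.9 to 29.99) with Mg-TAGelMA. It was 18.8-fold and 6.64-fold below the other gated cells in immature and 15.7-fold and 5.42-fold in mature neutrophil-like cells. Of the 46.6 CPM in mature neutrophil-like cells of the Mg library, free erythroid RNA alone, scaled by globin, would give 81.9, which is more than was measured. Prdx3, the mitochondrial peroxiredoxin, shared the erythroid peak at 204 and 254 CPM, 5.61-fold and 10.99-fold over the other gated cells.

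Prdx5, found in mitochondria, peroxisomes and cytosol, had the opposite pattern. It measured 1707 and 2025 CPM in immature neutrophil-like cells, 8.11-fold (7.89 to 8.33) over the other gated cells with Mg and 2.71-fold (2.67 to 2.75) with Mg-TAGelMA. Mature neutrophil-like cells had 758 and 1514 CPM and monocyte-like cells 735 and 959 CPM. Erythroid-like cells had 66.9 and 221 CPM, 3.31-fold (2.93 to 3.72) higher in the Mg-TAGelMA library. Free RNA of immature neutrophil-like cells would give 19.3 and 77.6 CPM of these, and the fold without it was 3.02. The fold in B progenitor-like cells was 2.004-fold (1.84 to 2.18) and in T-like cells 1.85-fold (1.61 to 2.13), which did not pass the rule. Without that free RNA they were 1.64 and 1.55.

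Prdx6, which also reduces phospholipid hydroperoxides, measured 356 and 459 CPM in immature neutrophil-like cells, 2.80-fold and 2.06-fold over the other gated cells. It was low in B progenitor-like (66.04 and 86.8 CPM) and B-like cells (66.1 and 128 CPM) but not in T-like cells (215 and 271 CPM), so the lymphoid classes differed in this member. Prdx1, a cytosolic peroxiredoxin and NRF2 target with the response element core shown above, was highest in monocyte-like cells at 527 and 529 CPM, 2.42-fold (2.30 to 2.54) over the other gated cells with Mg and 3.60-fold (3.48 to 3.73) with Mg-TAGelMA. With Leiden clusters in place of the gate the smaller of these folds was 0.90 on the log2 scale, not past the rule. Prdx1 was low in immature (55.2 and 62.7 CPM) and mature neutrophil-like cells (67.6 and 57.96 CPM). Prdx4, the peroxiredoxin of the endoplasmic reticulum, was called lower in immature neutrophil-like cells (6.10 and 5.39 CPM), a call lost with Leiden clusters as were those of Prdx6 in the same class and G6pdx in T-like cells, and was highest in monocyte-like (80.7 and 97.9 CPM) and B progenitor-like cells (84.3 and 73.3 CPM).

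Sod1, the cytosolic copper-zinc superoxide dismutase, was 2.20-fold and 2.98-fold over the other gated cells in erythroid-like cells (209 and 152 CPM) and 4.92-fold and 4.19-fold below them in immature neutrophil-like cells (28.8 and 17.2 CPM). Monocyte-like cells had 215 and 130.1 CPM. Sod2, the mitochondrial manganese enzyme, was past no rule, from 22.5 CPM in mature neutrophil-like to 93.4 in erythroid-like cells of the Mg library. Cat, catalase, was highest in B progenitor-like cells of both libraries at 103 and 61.97 CPM, followed in the Mg library by B-like cells with 89.9 CPM (38.2 in the other library). Neutrophil-like cells had the lowest Cat level, 12.03 and 6.55 CPM in mature and 17.1 and 9.48 CPM in immature cells.

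The glutathione transferases, which join glutathione to electrophiles, differed in their profiles over the classes, with some overlap. Gstm1, a cytosolic mu-class enzyme, measured 604 and 353 CPM in early granulocyte-like cells, 20.4-fold (18.2 to 22.8) over the other gated cells with Mg and 8.29-fold (7.79 to 8.82) with Mg-TAGelMA, and monocyte-like cells followed at 98.6 and 112 CPM. The microsomal enzyme Mgst2 was 12.5-fold and 4.62-fold over the other gated cells in immature neutrophil-like cells (319.5 and 212 CPM) and lower in monocyte-like cells (11.2 and 19.5 CPM). Its highest class in the Mg library was early granulocyte-like cells at 327 CPM. Mgst3 was the most erythroid of all members, at 736 and 588 CPM, 43.97-fold (40.5 to 47.8) over the other gated cells with Mg and 54.04-fold (49.2 to 59.4) with Mg-TAGelMA. Mgst1 was present in immature (289 and 420.3 CPM) and mature neutrophil-like (251 and 542 CPM) and monocyte-like cells (278 and 293 CPM), and 25.4-fold and 11.1-fold lower in T-like cells (5.09 and 26.4 CPM). Gsta4 was low everywhere, at 0.942 and 0.867 CPM in all cells.

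G6pdx and Taldo1 belong to the pentose phosphate pathway, which supplies NADPH. G6pdx, glucose-6-phosphate dehydrogenase, was highest in immature neutrophil-like cells at 155 and 134 CPM, 6.94-fold and 3.16-fold over the other gated cells, and 14.9 and 14.6 CPM in B-like cells. Taldo1, transaldolase, was highest in mature neutrophil-like cells at 1162 and 1430.5 CPM, 2.70-fold and 2.80-fold over the other gated cells, and lowest in T-like cells at 164 and 181 CPM. Osgin1, an NRF2 target induced by oxidative stress, had its highest level in the same class, at 78.2 and 62.9 CPM in mature neutrophil-like cells, 23.2-fold (16.6 to 31.9) over the other gated cells with Mg and 7.33-fold (6.48 to 8.29) with Mg-TAGelMA. Osgin1 in immature neutrophil-like cells was 11.6 and 16.5 CPM, and the other 6 classes had at most 3.37 and 5.08 CPM. Nqo1, a quinone reductase often used as a readout of NRF2, was low at 4.64 and 2.31 CPM in all cells, with 19.04 and 13.9 CPM in erythroid-like cells.

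Over all kept cells, 27 members reached 50 CPM. Of these 5 were called higher with Mg-TAGelMA, against 18.8% of all genes tested, and 5 lower, against 7.63%. The median log2 fold was 0.17 for the 27 and -0.01 for all 3973 genes tested. Higher were Slc7a11 (34.9 and 336 CPM, 9.62-fold (9.18 to 10.1)), Gsr (241 and 802 CPM, 3.33-fold (3.27 to 3.39)), Nfe2l2 (60.7 and 149 CPM, 2.46-fold (2.37 to 2.56)), Mgst1 (109.7 and 262 CPM, 2.39-fold (2.32 to 2.46)) and Prdx5 (475 and 1059 CPM, 2.23-fold (2.20 to 2.26)). Lower were Mgst3 (145 and 30.3 CPM, 4.79-fold (4.57 to 5.02)), Prdx2 (702 and 205 CPM, 3.42-fold (3.36 to 3.49)), Gclm (169 and 70.9 CPM, 2.38-fold (2.31 to 2.47)), Cat (62.2 and 26.95 CPM, 2.31-fold (2.18 to 2.44)) and Sod1 (132 and 60.8 CPM, 2.17-fold (2.09 to 2.25)).

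These folds were set beside what the mix of classes would give with no change of level within a class. Weighting the Mg levels of each class by the Mg-TAGelMA class shares gave Prdx2 a 2.59-fold lower level where 3.42-fold was measured. Mgst3 was 3.49-fold lower by shares and 4.79-fold lower as measured, and Gclm 1.97-fold and 2.38-fold. All 3 were called higher in erythroid-like cells. On the higher side, Slc7a11 was 3.81-fold higher by shares and 9.62-fold as measured, Gsr 2.21-fold and 3.33-fold, and Prdx5 1.67-fold and 2.23-fold. For Nfe2l2 the shares gave 1.21-fold against 2.46-fold higher as measured. For Sod1 they gave 1.24-fold against 2.17-fold lower, and for Keap1 1.05-fold against 2.06-fold lower (not past the rule). Mgst1 and Cat, with measured folds given above, were 1.57-fold higher and 1.41-fold lower by shares. This weighting was chosen after the values were seen. The part of the cell mix in these folds was not tested, and library and cell state could not be told apart within most classes.

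**Figure D3:**
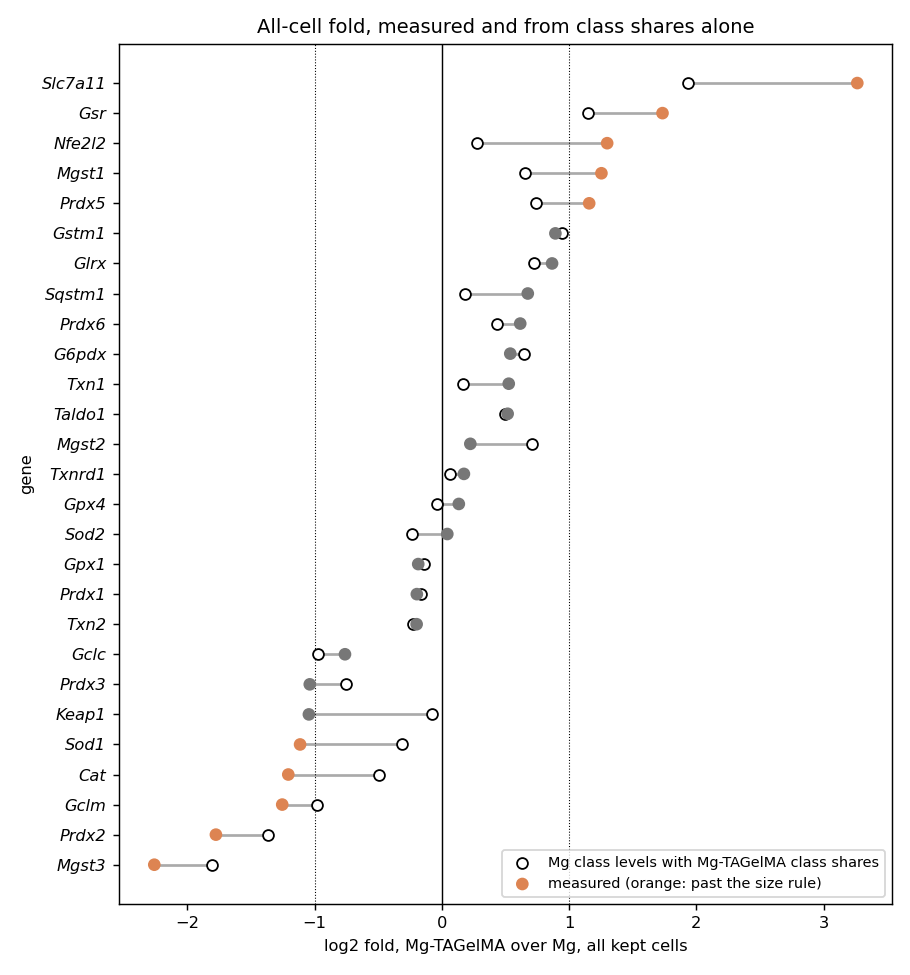
The log2 fold of Mg-TAGelMA over Mg in all kept cells is shown for the 27 members that reached 50 CPM. Filled points are measured (orange where past the size rule) and open points are what the Mg levels give with the Mg-TAGelMA class shares. The open point of Prdx2 lies at 2.59-fold lower and that of Nfe2l2 near 0 on the log2 scale.

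The fold between libraries moved with intron length over all genes. In B-like cells the median log2 fold was -0.47 for genes with up to 2 kb of annotated intron and 1.32 for those over 64 kb. In mature neutrophil-like cells these medians were -0.01 and 0.62. The 2 libraries were counted with different Cell Ranger versions, and whether intronic reads were counted in each was not tested. Among the members with calls, Nfe2l2 has 25.3 kb of intron, Gsr 42.9 kb, Txn1 11.99 kb, Sqstm1 8.11 kb, Keap1 4.94 kb and Prdx5 1.27 kb. In the bin from 24 to 64 kb that holds Nfe2l2 and Gsr, the median log2 fold of all genes was 0.23 in B-like cells, where Nfe2l2 had 1.60 and Gsr 1.59. Slc7a11 is in the bin over 64 kb, whose median in mature neutrophil-like cells is given above and in immature neutrophil-like cells was 0.50, while Slc7a11 had 1.28 and 1.15. The part of intron counting in these folds was not tested.

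For 11 members with at most 8 kb of intron, the comparison was repeated within such genes alone. Prdx5 was then higher in the Mg-TAGelMA library in erythroid-like cells at 3.89-fold (3.45 to 4.38) (background 6.9%), B progenitor-like cells at 2.60-fold (2.39 to 2.83) (7.11%), T-like cells at 2.42-fold (2.11 to 2.79) (7.1%) and mature neutrophil-like cells at 2.23-fold (2.04 to 2.44) (5.65%). B-like cells had 3 members higher (background 7.72%): Glrx at 2.96-fold (2.24 to 3.93), Prdx6 at 2.70-fold (2.38 to 3.07) and Prdx5 at 2.37-fold (2.17 to 2.58). Without free RNA of immature neutrophil-like cells, and with the full total, the B-like fold was 1.70 for Glrx, 1.79 for Prdx6 and 1.39 for Prdx5. By the same measure the Prdx5 fold was 1.64 in B progenitor-like, 1.55 in T-like and 3.02 in erythroid-like cells. With mature neutrophil-like cells as the source, the B-like fold was 1.63 for Glrx, 1.87 for Prdx6 and 1.44 for Prdx5. The sources were not removed together, so these folds may still hold free RNA. Over all cells Prdx5 (2.53-fold (2.50 to 2.57)), Glrx (2.07-fold (2.001 to 2.14)) and Gstm1 (2.10-fold (2.001 to 2.20)) were higher (background 9.18%) and Prdx2 was lower at 3.02-fold (2.96 to 3.07) (7.81%).

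**Figure D4:**
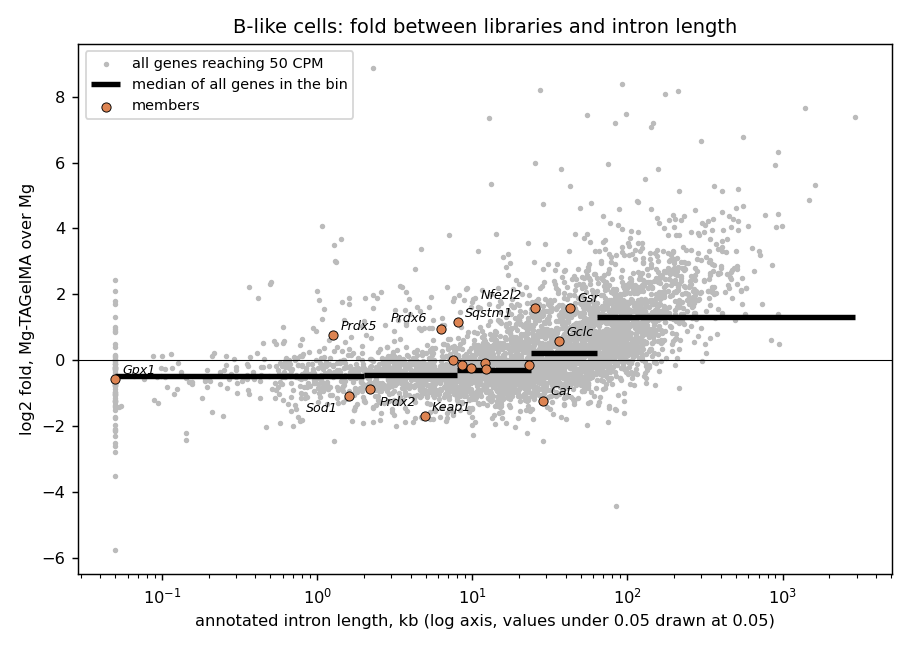
Each grey point is a gene that reached 50 CPM in B-like cells, placed by its annotated intron length in kb (log axis) and its log2 fold of Mg-TAGelMA over Mg. Black lines are the medians of all genes in 5 bins of intron length, and orange points are members, named where the log2 fold is beyond 0.5 in either direction. The median rises from -0.47 to 1.32, and Keap1 lies below and Prdx5 and Prdx6 above their bins.

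The erythroid genes also varied within erythroid-like cells. Cells were split by the share of globin in their UMIs (under 2%, 2 to 20% and over 20%), which gave 63, 254 and 634 Mg cells and 17, 51 and 40 Mg-TAGelMA cells. Levels here are CPM computed without globin UMIs, and the split was chosen after the values were seen. Median depth fell over these bins from 33325 to 3844.5 UMIs in the Mg library and from 44334 to 3803 in the other. The bins are globin shares and not times, and a higher CPM need not mean more UMIs per cell. Cat had 78, 153 and 359 UMIs in the 63, 254 and 634 Mg cells, and 24, 42 and 36 in the 17, 51 and 40 others. Alas2, the first enzyme of haem synthesis in red cells and 1 of the gate's markers, went from 22.5 to 2101 CPM and from 30.2 to 2057 CPM.

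Prdx2 was 2179, 3616 and 5321 CPM over the 3 bins of Mg cells and 1968, 3232 and 5539.8 over those of Mg-TAGelMA cells. Gpx1 was 1547, 2987 and 8056 and 1979.8, 2559 and 6751 CPM. Gclm was 547, 717 and 1289 and 449, 509 and 1003 CPM, with the first 2 bins of the Mg-TAGelMA library overlapping. Intervals of neighbouring bins did not overlap for Prdx2 and Gpx1 in either library, so the CPM of both peroxidases was higher with each step in globin. Mgst3 went from 327 to 1319.6 and from 339 to 982 CPM. Cat was highest in the bin with most globin, at 40.8, 37.3 and 217 CPM in the Mg library and 36.3, 33.95 and 258 in the other, with the first bins overlapping and the last apart. Prdx1 went the other way, 325, 215 and 124 and 346, 319 and 136 CPM (the first 2 bins of the latter overlapped), and so did Prdx6 in the Mg library at 324, 131 and 59.2 CPM. For Prdx6 in the Mg-TAGelMA library, at 295, 214 and 208 CPM, the last 2 bins overlapped. Gclc and Prdx3 followed no common order in both libraries. Sod1 was also lowest in the bin with most globin, at 328, 253 and 197 and 169, 174 and 93.2 CPM, although its interval overlapped those of both other bins in the Mg-TAGelMA library.

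**Figure D5:**
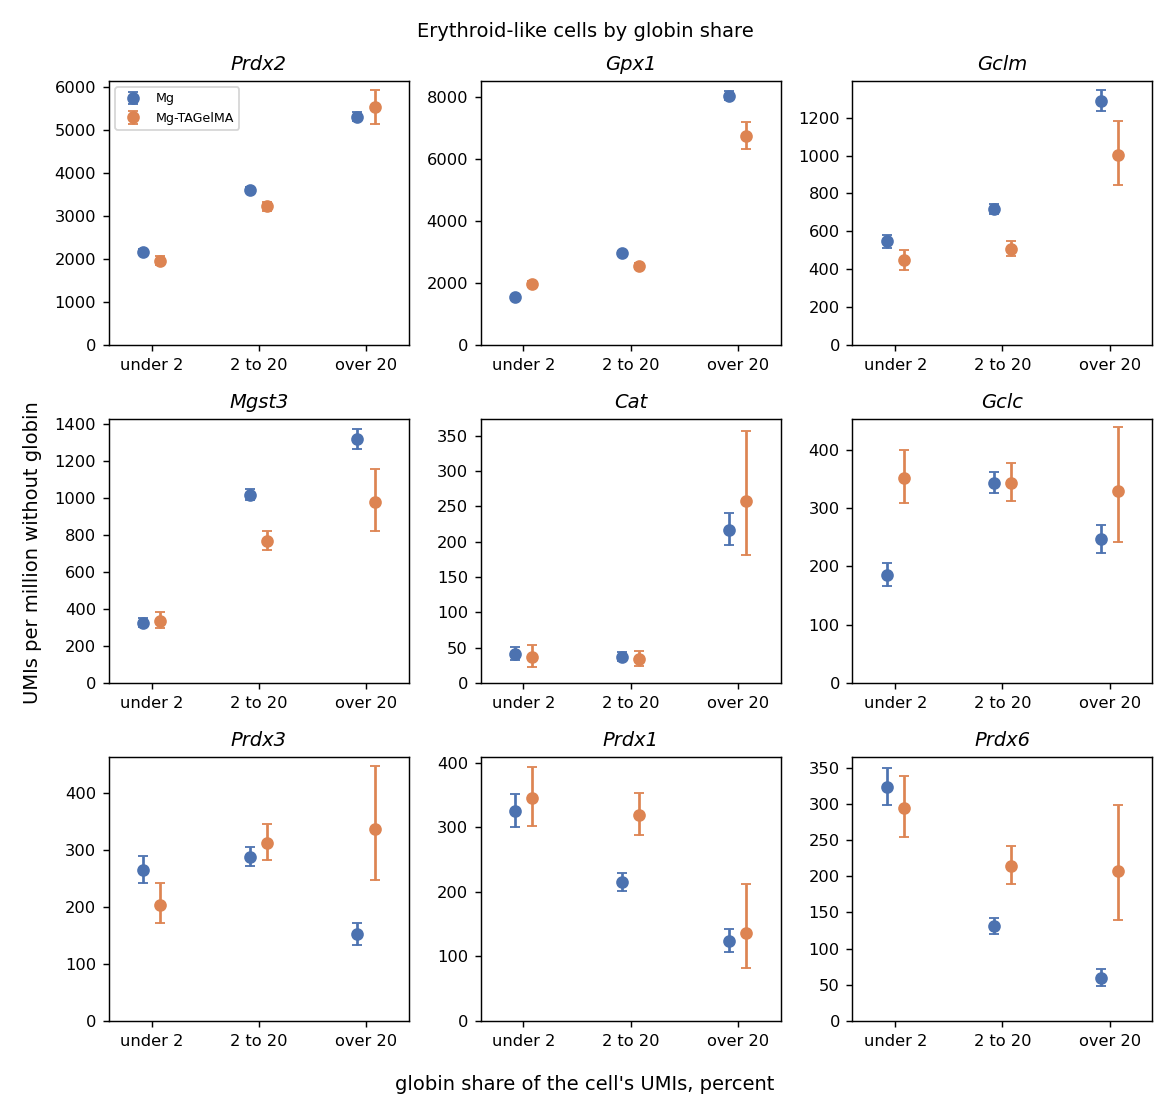
The level of 9 members in CPM without globin is shown in erythroid-like cells with under 2%, 2 to 20% and over 20% of UMIs from globin, in the Mg library (blue) and the Mg-TAGelMA library (orange). Bars are exact Poisson 95% intervals. Prdx2, Gpx1, Gclm, Mgst3 and Cat are highest in the bin with most globin in both libraries, and Prdx1 is lowest there.

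Of 66 further redox genes listed by group, 65 were found. Over all cells 31 were tested, and 3 were higher (Bach2, Msra and Msrb1, against 18.8% of all genes) and 2 lower (Blvrb and Glrx5, against 7.63%) in the Mg-TAGelMA library, with a median log2 fold of 0.06 beside -0.01 for all genes. Msra and Msrb1, methionine sulfoxide reductases, were 7.05-fold and 3.37-fold higher, and Msra has 329 kb of intron and Msrb1 4.88 kb. Bach2, a repressor related to BACH1 that can occupy the same elements, has 337 kb and was 3.32-fold higher. Blvrb, biliverdin reductase B, and Glrx5, a mitochondrial iron-sulfur glutaredoxin, were 3.53-fold and 3.16-fold lower, and both were erythroid, at 1889 and 1775 CPM (Blvrb) and 978 and 756 CPM (Glrx5) in erythroid-like cells. Against the other gated cells, of 28 tested in erythroid-like cells 6 were higher and 6 lower, against 15.2% and 20.8% of all genes. Of 33 tested in monocyte-like cells 6 were higher and 3 lower, against 9.33% and 5.06%. Among the 6 higher in monocyte-like cells were Hmox1, haem oxygenase, and Bach1, the repressor of Hmox1. Tkt, transketolase of the pentose phosphate pathway, was called higher in immature neutrophil-like cells, as was the member G6pdx, at 1153 and 858 CPM. Within mature neutrophil-like cells, 5 of the 22 tested passed the rule upward with Mg-TAGelMA and 2 downward, against 11.9% and 9.19% of all genes. Among them Fth1 and Ftl1, the heavy and light chains of ferritin that store iron, had 2041 and 9342 CPM (Fth1) and 840.3 and 3126 CPM (Ftl1). Mafg, a small MAF partner of NRF2, was 4.75-fold lower there, at 361 and 76.02 CPM. The genes of this longer list other than the 5 of all cells were named after their values were seen.

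Past no size rule on the full totals were 7 members: Gpx3, Gpx4, Txnrd1, Srxn1, Sod2, Gsta4 and Nqo1. Of these, Gpx3, Srxn1, Gsta4 and Nqo1 were under 10 CPM in all cells of both libraries. Gpx4, Prdx6 and Txn1 have named pseudogenes in the annotation, so reads shared with those copies may be missing from their counts.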

How the data were processed

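The authors deposited raw UMI counts per gene and barcode, not normalized. Reads were processed with Cell Ranger and STAR on mm10 per the submitters' processing notes, with Cell Ranger 5.0.0 (Mg) and 7.0.1 (Mg-TAGelMA) per the file headers. Whether introns were counted is not given in the sources used here. Cells with under 200 genes, over 15% mitochondrial UMIs or a scrublet doublet call (scanpy 1.11.5; 197 and 297 cells) were left out. A cell joined a class with 2 or more distinct markers above a level per 10000 UMIs set with the data in view, and of 1 lineage only. Counts were summed per library and class. Intervals for levels are exact Poisson and for ratios exact conditional binomial (scipy 1.17.1), and shares of cells have exact Clopper-Pearson intervals. A gene counted as tested when it reached 50 CPM. There are 2 libraries and 1 per group, so nothing was tested between nails. The size rule was tested on simulated data. Intron lengths came from the GENCODE annotation, and protein sequences were not used here. Alternatives used edgeR 4.0.16 and DESeq2 1.42.0 for scaling factors only. Every member was described by role; values were printed for those past a size rule. The members, gene lists, gates and further measures were chosen with earlier results of these data known.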

Additional observations from a re-analysis of the deposited data

How the results depend on the processing

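Of the 13 alternatives, 3 only loosen the rule and cannot lose a call. Under the other 10, 578 recomputed single-member calls stood, 56 no longer passed the size rule (26 of them when cells of at least 1000 UMIs were thinned to that number) and 0 changed direction. Members lower within classes numbered 2, and 4 with TMM scaling, 4 with DESeq2 size factors, 1 with genes of at most 8 kb of intron, 7 with a 1.5-fold bound and 1 when thinned. Members higher within classes numbered 12, and 7 with genes of at most 8 kb of intron, 7 with the total without globin, mitochondrial, Gm42418 and Lars2 UMIs, 20 with no CPM minimum and 25 with a 1.5-fold bound. Over all cells 5 were higher, and 3 with genes of at most 8 kb of intron and 8 with a 1.5-fold bound, and 5 were lower, and 1, 8 and 3 with the short-intron genes, the 1.5-fold bound and thinning. Calls between classes numbered 19 higher, and 6 with genes of at most 8 kb of intron and 33 with a 1.5-fold bound, and 42 lower, and 17 with the short-intron genes. Only 11 members can enter the short-intron counts, and the cause of the other moves was not tested. Erythroid-like cells could not be compared between libraries with at least 500 genes or thinned, nor mature neutrophil-like cells under Leiden clusters. No paired analysis was possible because each group has 1 library. Nail, library, counting version and pooled mice cannot be told apart.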
